A study of Mus musculus with 2 samples.

Results

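The genes that build, assemble and switch on the motile cilium were followed through 2 single-cell RNA libraries of the adult mouse hippocampus. Members were taken by symbol: those that begin with Cfap, Dnah, Dnai, Dnali, Rsph, Dnaaf, Drc or Spag followed by a digit, together with Foxj1, Ccdc153, Tmem212, Dynlrb2, Fam183b and Meig1. Of the 22587 symbols in the gene list, 83 fit this rule, and 75 had at least 20 UMIs (unique molecular identifiers, 1 per captured mRNA molecule) over all barcodes of both libraries. Just inside this minimum were Cfap99 with 26 UMIs and Dnah7c with 31, and just outside it was Cfap73 with 10. Dnah17 had 2 UMIs, Spag6 and Dnah8 had 1 each, and Rsph6a, Spag11a, Spag11b and Cfap97d1 had 0.

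Both libraries came from mice that carried Nestin-CreERT2, a tamoxifen-inducible recombinase driven by a Nestin promoter, and the ROSA26YFP reporter of recombination. The control library (CT) came from mice negative for Opa1-Flox and the Opa1 cKO library from mice with Opa1-Flox, in which the gene for the mitochondrial inner membrane fusion protein OPA1 can be deleted in Nestin-expressing cells. All mice were given tamoxifen at 8 weeks of age, and YFP-positive, propidium iodide-negative hippocampal cells were collected at 12 weeks, which is 4 weeks after tamoxifen. Cells of 3 mice were pooled per genotype into 1 library, so genotype, pool and library cannot be told apart, no test between genotypes was possible, and the intervals below (95%) cover counting error only.

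A motile cilium is a whip-like extension of the cell surface built on a ring of paired microtubules around a central pair. Dynein arms on the ring slide the microtubules against each other, radial spokes and the central apparatus coordinate that sliding, and assembly factors in the cytoplasm load the dyneins before they are carried into the cilium by intraflagellar transport. In the brain, tufts of such cilia cover ependymal cells, the lining of the ventricles, where they move cerebrospinal fluid. FOXJ1 and the RFX factors are the transcription factors known for switching on this set of genes, and neural stem cells by contrast carry a solitary primary cilium that does not beat.

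The RFX family binds a palindrome, searched here as GTTNCC, any 2 bases and GGNAAC, and the 6-letter core GTTGCC overlaps it. Promoters of 300 bases (250 before and 50 after the RefSeq start, build GRCm38.p6) were at hand for 62 of the 75 members and were searched on both strands. Axonemal members are here the 66 left after 7 known for work outside the motile axoneme and 2 without an assigned role. The term is thus wide and takes in Foxj1, the assembly factors, Tmem212 and Meig1. The core stood in 25 of 61 promoters of axonemal members (41.0%; exact interval 28.6 to 54.3%), compared with 4111 of 32851 promoters of all genes (12.5%). Some genes have several promoters, which overlap in part, and the interval takes promoters as independent. By gene, 24 of 55 axonemal members held the core in any promoter, beside 3821 of 27025 genes in all. Of 46 promoters of motile cilium genes outside the rule, 27 held it (58.7%), whereas 0 of 7 promoters of members outside the axoneme did (exact upper limit 41.0%), and that of Cfap97d2, whose role was not assigned, also held it. The FOX letters GTAAACA were in 2 of 61 axonemal promoters (3.28%) and in 3.65% of all promoters, and the whole palindrome was in 1 of 61 (1.64%) and in 0.451% of all. That 1 match, in the promoter of the dynein assembly factor Cfap298, lies 188 to 175 bases before its start on the minus strand (chr16:90935024-90935037):

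Cfap298: GTTGCCCGGGCAAC

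The bases before the start are shown for 4 of the members with the most transcripts, because 3 of them hold the core (in capitals) and the most abundant by total, Tmem212, holds none. Being picked by the core, they do not show how often abundant members hold it. The promoters of Meig1 and Cfap126, also abundant, held none. They run 5′ to 3′ on the strand of the gene, and each ends before the start in both RefSeq and GENCODE M21. A match is a description of the letters and says nothing of binding.

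Dynlrb2, chr8:116504765-116504973, plus strand: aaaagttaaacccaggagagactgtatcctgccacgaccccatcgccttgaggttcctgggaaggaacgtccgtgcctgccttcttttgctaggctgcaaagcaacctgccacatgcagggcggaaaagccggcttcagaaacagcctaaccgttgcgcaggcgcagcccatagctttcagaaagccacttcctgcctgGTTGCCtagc
Ccdc153, chr9:44240427-44240675, plus strand: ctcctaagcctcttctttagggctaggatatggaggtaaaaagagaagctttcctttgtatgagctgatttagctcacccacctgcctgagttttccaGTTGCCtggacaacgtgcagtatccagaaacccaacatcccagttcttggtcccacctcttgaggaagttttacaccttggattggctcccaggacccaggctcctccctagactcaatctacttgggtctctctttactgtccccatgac
Fam183b, chr11:58801961-58802210, minus strand: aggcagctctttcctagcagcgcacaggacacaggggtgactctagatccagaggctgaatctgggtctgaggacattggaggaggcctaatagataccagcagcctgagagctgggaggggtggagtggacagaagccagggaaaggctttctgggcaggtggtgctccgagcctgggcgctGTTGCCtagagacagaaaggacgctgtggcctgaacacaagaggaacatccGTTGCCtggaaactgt
Tmem212, chr3:27896369-27896618, minus strand: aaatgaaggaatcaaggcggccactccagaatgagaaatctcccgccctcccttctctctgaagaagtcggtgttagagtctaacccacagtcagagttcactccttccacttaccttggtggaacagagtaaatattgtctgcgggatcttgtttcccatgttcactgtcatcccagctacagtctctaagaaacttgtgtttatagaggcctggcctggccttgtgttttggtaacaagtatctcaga

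After filtering, 1790 CT cells with 5051491 UMIs and 3764 Opa1 cKO cells with 12483473 UMIs remained, with medians of 2555 and 3008 UMIs per cell. Cells were clustered without the members and without the cilium genes of the fixed lists below, so that none of these defined a class. Any cilium gene outside the rule and the lists stayed in. One cluster was named ependymal-like from 8 ependymal markers that are not cilium genes, of which 7 were higher there and Sec14l3 had 0 UMIs. It held 39 CT cells, or 2.18% of the library (exact interval 1.55 to 2.97%), and 244 Opa1 cKO cells, or 6.48% (5.72 to 7.32%). Of 7 choroid plexus markers, Ttr, Kcnj13, Kl and Aqp1 had 0 UMIs in it in both libraries, whereas Folr1, Clic6 and Otx2 had UMIs in both. The list summed to 310 and 308 CPM, the UMIs of a gene or list scaled to a common total. In all other cells it summed to 1.01 and 2.25 CPM. The remaining classes were NSC pool-like, activated NSC-like, progenitor and neuron-like, mural-like, endothelial-like and oligodendrocyte-like, NSC standing for neural stem cell. Barcodes shared by the libraries numbered 36, of which 2 were ependymal-like cells.

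Opa1 itself was sparse in ependymal-like cells, with 4 UMIs in CT (36.5 CPM) and 3 in Opa1 cKO (3.16 CPM; log2 ratio -3.53, interval -6.30 to -0.97). The NSC pool-like class had 18.5 CPM of Opa1 in CT (70 UMIs) and 8.06 CPM in Opa1 cKO (68 UMIs). The assay counts the 3′ end of transcripts, and which part of Opa1 is deleted is not given in the sources used here, so these counts are a limited check of the labels. Transcripts encoded by the mitochondrial genome (mt-) made up a median of 6.41% of UMIs in CT ependymal-like cells, where the lowest cell had 2.27%. In Opa1 cKO ependymal-like cells the median was 0.684% and the range 0.0701 to 7.71%, so the libraries overlapped only in the upper part of the Opa1 cKO range.

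The 75 members made up 2.13% of all UMIs in ependymal-like cells of CT and 2.21% in those of Opa1 cKO. This corresponded to 21333 CPM (20477 to 22216, from 2336 UMIs) and 22099 CPM (21801 to 22400, from 20953 UMIs). In every other class the members summed to between 444 and 1148 CPM. Ependymal-like cells contributed 2.17% of the UMIs of the filtered CT library but 39.7% of the members' UMIs, and in Opa1 cKO 7.60% and 69.6%. Every ependymal-like cell, 39 of 39 and 244 of 244, had at least 10 UMIs of the 66 axonemal members, compared with 1 of 1751 and 22 of 3520 other cells.

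**Figure D1:**
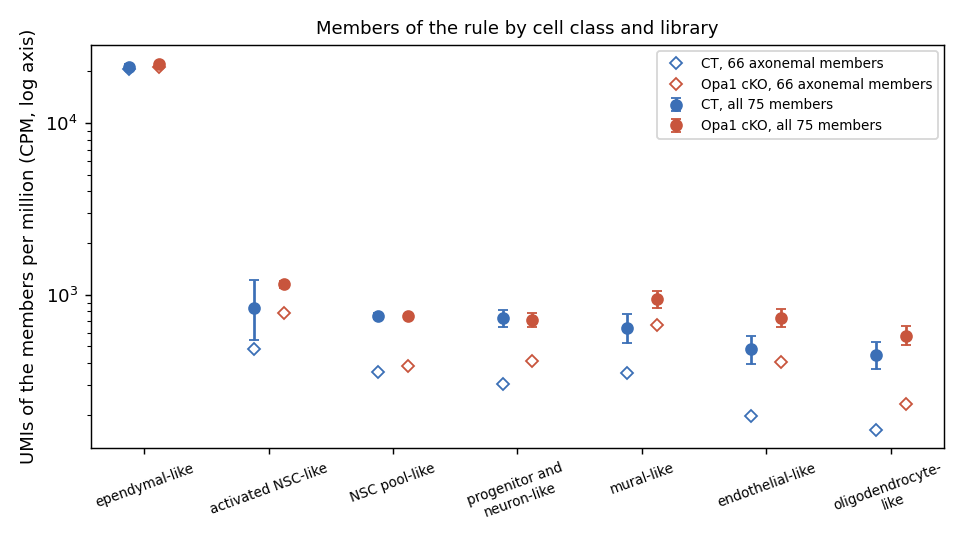
Summed level of the members (CPM, log axis) in each class of the CT and Opa1 cKO libraries, with circles for all 75 members, bars for 95% Poisson counting intervals, and open diamonds for the 66 axonemal members. The circles of ependymal-like cells lie at 21333 and 22099 CPM, and those of all other classes between 444 and 1148 CPM.

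The members' levels in ependymal-like cells were set against those in all other cells of the same library as a log2 ratio of CPM. In CT, 33 of the 44 members with 20 or more UMIs in the cells compared had a log2 ratio of at least 2 (75%), beside 12.3% of all 11212 genes. In Opa1 cKO, 62 of 73 members did (84.9%), beside 9.23% of all 12468 genes. Over the members the log2 ratio had a median of 6.99 (CT) and 6.35 (Opa1 cKO), and over all genes one of 0.29 and -0.12. A member with 0 UMIs on one side was set at 3 counts, so its ratio is a bound. Many members reached 20 UMIs only through ependymal-like cells, such as Cfap65 in CT with 27 UMIs there and 1 elsewhere. Their high ratios, and with them the shares and medians, thus follow in part from that minimum. With members of at least 100 UMIs the CT median was 2.89.

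Ccdc153 (chr9:44240676-44247306) and Tmem212 (chr3:27866066-27896368), the latter a predicted membrane protein, were the most abundant members. Ependymal-like cells held Ccdc153 at 3187 CPM (CT, 349 UMIs) and 2994 CPM (Opa1 cKO, 2839 UMIs), whereas the rest had 3.84 and 8.93 CPM. Tmem212 stood at 2831 and 3296 CPM, and at 3.24 and 10.1 CPM elsewhere. Values given as a pair are CT first and Opa1 cKO second. With Meig1, a gene known for its part in sperm formation and for expression in ciliated cells (895 and 1170 CPM), they held most of the 32.9% and 34.9% of member UMIs that came from motile cilium genes placed in no axonemal complex here.

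Among the axonemal complexes, the microtubule inner proteins, which line the inside of the doublet microtubules, contributed 17.1% and 17.3% of the members' UMIs. Fam183b (chr11:58792797-58801960) was at 1352 and 1335 CPM, Cfap126 at 950 and 1034 CPM, and Cfap161 at 402 and 455 CPM. The radial spokes, which reach from the doublets to the central pair, gave 12.2% and 11.4%, most of it from the spoke head protein gene Rsph1 at 1379 and 1498 CPM. Dynlrb2 (chr8:116504974-116515915), a dynein light chain of the roadblock family, was alone at 1626 and 1728 CPM. Its paralogue Dynlrb1, a subunit of cytoplasmic dynein, was at 301 and 352 CPM there but at 371 and 430 CPM elsewhere, with log2 ratios of -0.30 (-0.84 to 0.20) and -0.29 (-0.45 to -0.13). Dynlrb1 was thus near even between the classes, beside log2 ratios of 8.88 and 7.49 for Dynlrb2.

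The force-producing dynein heavy chains had fewer UMIs, each UMI standing for the 3′ end of a transcript whatever its length. The outer arm chains Dnah9, Dnah5 and Dnah11 were at 164, 219 and 164 CPM in the control and 187, 138 and 129 CPM in the knockout. The inner arm members were led by Dnah12 (393 and 398 CPM), the light intermediate chain Dnali1 (374 and 279 CPM) and Dnah6 (174 and 182 CPM), and as a group had log2 ratios to other cells of 7.01 (6.55 to 7.48) in CT and 6.33 (6.10 to 6.56) in Opa1 cKO. UMIs of Dnah7a, Dnah7b and Dnah7c, and of Rsph3a and Rsph3b, are uncertain, because these genes are near-identical copies among which counting could split reads.

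The central apparatus, with 12 members, was led by Spag6l (311 and 289 CPM), Cfap54 (420 and 250 CPM) and Spag17 (164 and 186 CPM). Spag17 had 0 UMIs in the 1751 other CT cells and 5 in the 3520 other Opa1 cKO cells. The nexin-dynein regulatory complex, which links neighbouring doublets, was represented by Drc3 (237 and 360 CPM), Drc1 (164 and 178 CPM) and Drc7 (119 and 111 CPM). Cfap100, Cfap44 and Cfap43, which belong to the tether and modifier of the inner arms, were at 146, 110 and 155 CPM in the control and 206, 131 and 124 CPM in the knockout. Foxj1 (chr11:116330704-116335399), the transcription factor of the set, stood at 521 and 362 CPM against 1.82 and 8.06 CPM elsewhere, with log2 ratios of 8.16 and 5.49.

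**Figure D2:**
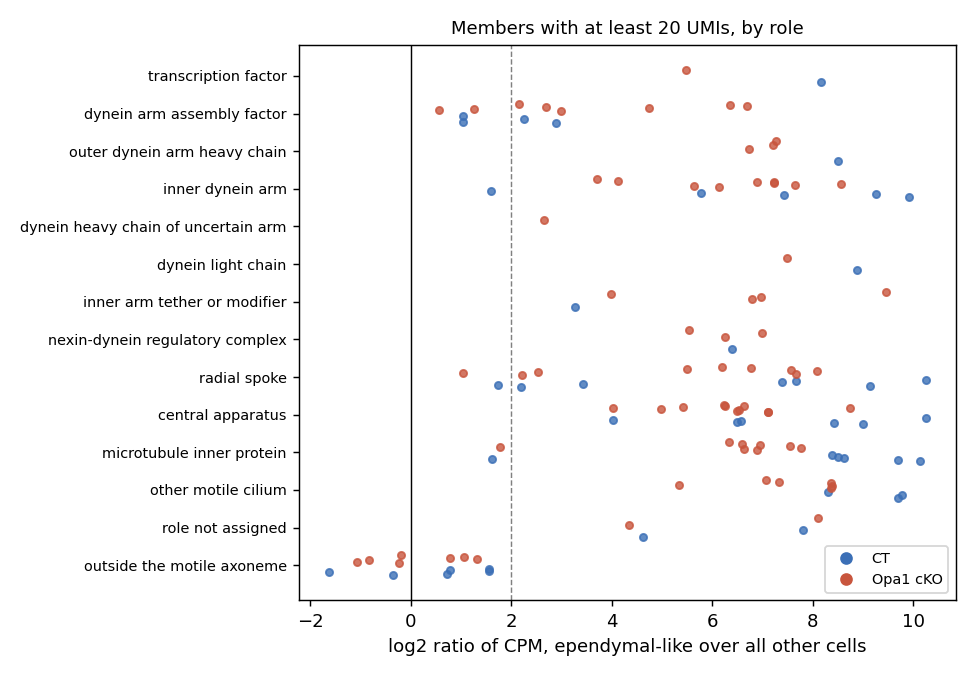
Log2 ratio of CPM in ependymal-like over all other cells of the same library, with 1 point per member that had at least 20 UMIs in the cells compared, arranged by role. The dashed line marks a log2 ratio of 2; members with 0 UMIs on one side were set at 3 counts. Most axonemal members lie above 5, while those outside the motile axoneme lie between -1.63 and 1.57.

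Not every symbol that fits the rule behaved in this way. The 7 members known for work outside the motile axoneme summed to 447 CPM in ependymal-like and 379 CPM in other cells of CT, a log2 ratio of 0.24 (-0.20 to 0.65), and in Opa1 cKO to 466 and 347 CPM, a ratio of 0.42 (0.28 to 0.57). Spag9, which encodes a scaffold of JNK signalling and vesicle transport, was lower in ependymal-like cells in both libraries, at 137 against 175 CPM and at 98.1 against 115 CPM, though the interval of its ratio reached above 0 in each. Spag7 was at 27.4 against 84.6 CPM and 45.4 against 81.1 CPM, with log2 ratios of -1.63 and -0.84. Spag5, which encodes a protein of the mitotic spindle, had 0 and 5 UMIs in ependymal-like cells and 82 and 128 in the others. Cfap36, Cfap410 and Cfap97 lay between 0.78 and 1.57 in log2 ratio in both libraries, and Spag4 had 1 and 4 ependymal-like UMIs.

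Of the axonemal members, 5 in CT and 4 in Opa1 cKO were under a log2 ratio of 2. Cfap20, Spag1 and Rsph3a were so in both libraries, and Dnah7b and Dnaaf5 in CT only. Dnaaf2 was so in Opa1 cKO, but in CT it was under the minimum of 20 UMIs, with 0 in ependymal-like cells and 14 elsewhere. Cfap20, a microtubule inner protein that is also found in non-motile cilia, was at 292 and 327 CPM against 95.3 and 95.2 CPM elsewhere, and had UMIs in every class of both libraries. Spag1, an assembly factor, had ratios of 1.04 and 0.57. Cfap298 and Rsph9 were above 2 but were also read elsewhere. The assembly factor Cfap298 was at 247 and 382 CPM against 33.2 and 47.8 CPM. Rsph9, a spoke head gene, was at 356 and 379 CPM against 78.3 and 81.8 CPM. Its complex partners Rsph1 and Rsph4a were at 2.43 and 1.42 CPM outside ependymal-like cells of CT and at 7.37 and 1.13 CPM in Opa1 cKO.

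Single cells gave the same division. A CT ependymal-like cell held UMIs of a median of 24 members (15 to 42) and an Opa1 cKO cell of 29 (11 to 51). When each cell was thinned to 1500 UMIs, which left out 4 Opa1 cKO cells, the medians were 17 (8 to 27) and 18 (7 to 27), and in NSC pool-like cells the median was 1 in both libraries. At this depth Ccdc153 was read in 100% of the 39 CT cells and in 98.3% of 240 Opa1 cKO cells, Tmem212 in 97.4% and 98.8%, Dynlrb2 in 84.6% and 89.2%, and Foxj1 in 41.0% and 45.8%. Foxj1 was read in 0.16% and 0.76% of thinned NSC pool-like cells, and in 1 of 74 (1.35%) and 3 of 101 (2.97%) thinned oligodendrocyte-like cells.

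Outside the ependymal-like class the members were at low levels. NSC pool-like cells held the members at 753 CPM in CT (725 to 781) and at 751 CPM in the Opa1 cKO library (733 to 770), of which the axonemal members gave 353 and 387 CPM. Nearly all of the CT cells of this class (1374 of 1377) fell in one cluster and 1780 of 2571 Opa1 cKO cells in another. Rsph9 was read in 12.6 and 11.9% of thinned NSC pool-like cells, Cfap20 in 12.9 and 12.5%, and Spag9 in 23.4 and 17.7%. Tmem212 was read in 0.55 and 1.43%, and Ccdc153 in 0.39 and 1.14%. Oligodendrocyte-like cells, which carry no motile cilia, had Tmem212 UMIs in 0 of 74 CT and 0 of 101 Opa1 cKO thinned cells (exact upper limits 4.86% and 3.59%). Ccdc153 was read in 0 and 2 of them (0% and 1.98%; exact upper limits 4.86% and 6.97%), in Opa1 cKO above the 1.14% of NSC pool-like cells. Before thinning, oligodendrocyte-like cells had medians of 3768 and 3914 UMIs, beside 2495 and 2960 in the NSC pool-like class. In Opa1 cKO, mural-like and endothelial-like cells held Tmem212 at 1.68% and 0.55% of its ependymal-like level, beside 0.27% in NSC pool-like cells. Ccdc153 was at 0.97% and 0.78%, beside 0.26%. In CT, Tmem212 was at 0% and 0.15%, beside 0.09%, and Ccdc153 at 0.19% and 0%, beside 0.09%. In Opa1 cKO, 1 mural-like and 1 endothelial-like cell held 31.6% and 23.6% of the axonemal UMIs of their classes. Whether the few UMIs of Tmem212 and Ccdc153 in NSC pool-like cells came from free RNA was not tested. Among activated NSC-like cells of Opa1 cKO, 17 of 419 had at least 10 axonemal UMIs, led by Cfap126, Fam183b and Dynlrb2, and held 26.0% of the axonemal UMIs of that class. Of these 17 cells 2 were among the highest 5% of doublet scores of the library, whereas all 5 such cells of Opa1 cKO in other classes were, and those were led by Tmem212 or Ccdc153. Whether these scores mark doublets was not tested.

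The comparison of genotypes asked whether loss of Opa1 went along with another level of these genes in ependymal-like cells. In all kept ependymal-like cells the members' sum had a log2 ratio of Opa1 cKO over CT of 0.05 (-0.01 to 0.11). The median over 68 members was 0.08, beside 0.06 for all 7049 genes with 20 UMIs. At a log2 ratio of 1 or more were 9 of 68 members (13.2%; 12.8% of all genes), and at -1 or less was 1 (1.47%; 7.06% of all genes). Of the 9, 6 had 2 or fewer UMIs in CT. The highest 5% of doublet scores took in 40 of the 244 Opa1 cKO cells and 2 of the 39 CT cells. Without them the ratio of the members' sum was 0.14 (0.08 to 0.21). In ependymal-like barcodes without a YFP UMI, described below, it was 0.11 (0.05 to 0.16). The mt- share, given above, also differed between the libraries. Counted per UMI outside mt- genes, the ratio of the members' sum was -0.027, and the part of the mt- share was not tested further. Counted per UMI of all genes, 4.72% of all genes had an interval above 0 and 4.74% below it, and among the 68 members 10.3% and 4.41%. Per UMI outside mt- genes these shares move towards below 0, as single members given below do, and they were not counted.

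The members whose interval lay below 0 were Foxj1, Cfap54 and Rsph10b. They were 4.41% of the members with 20 UMIs, near the 4.74% of all genes, so their number does not set the members apart. CT held Foxj1 at 521 CPM (57 UMIs) and Opa1 cKO at 362 CPM (343 UMIs), a log2 ratio of -0.52 (-0.93 to -0.09). Cfap54 (chr10:92775619-93081618) was at 420 and 250 CPM, a ratio of -0.75 (-1.21 to -0.26). Rsph10b (chr5:143933035-143985719), a radial spoke gene, was at 164 and 59.1 CPM, a ratio of -1.48 (-2.26 to -0.62), and it overlaps Pms2 on the same strand, so its reads cannot be wholly told apart. Thinned to 1500 UMIs per cell, the ratios were -0.14 for Foxj1, -0.70 for Cfap54 and -0.96 for Rsph10b, and the share of cells with Foxj1 was 41.0% (CT) and 45.8% (Opa1 cKO). In Opa1 cKO cells with an mt- share under 1% and in those with 1% or more, each of these genes was lower than in CT: Foxj1 was at 375 and 333 CPM, Cfap54 at 254 and 241 CPM, and Rsph10b at 62.0 and 52.8 CPM.

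The interval lay above 0 for 7 members. Tmem212 rested on the most counts, with 310 and 3125 UMIs and a ratio of 0.22 (0.05 to 0.39). Meig1 had a ratio of 0.39 (0.09 to 0.70), Drc3 of 0.60 (0.02 to 1.23) and the assembly factor Cfap298 of 0.63 (0.07 to 1.25). Spag8, a sperm-associated antigen gene, was at 54.8 and 134 CPM (ratio 1.29, 0.13 to 2.76), on 6 CT UMIs. Cfap299, whose role was not assigned, was at 183 and 384 CPM (ratio 1.07, 0.42 to 1.80), on 20 CT UMIs. Dnaaf4 had 1 CT UMI beside 53. Counting per UMI outside mt- genes lowers every ratio equally, and the lower limits of Tmem212, Drc3, Cfap298 and Dnaaf4 then fall below 0. So do the upper limits of Ccdc153, Cfap65 and Dnah5, whose intervals then lie wholly below 0. Counted per UMI of all genes, the intervals of the other high-count members included 0. They were at -0.09 (-0.25 to 0.07) for Ccdc153, 0.09 (-0.14 to 0.32) for Dynlrb2, -0.02 (-0.26 to 0.24) for Fam183b and 0.12 (-0.12 to 0.37) for Rsph1. By role, the 8 assembly factors summed to 438 and 676 CPM in cells with a YFP UMI (ratio 0.63, 0.20 to 1.08), and the 12 central apparatus members to 1708 and 1403 CPM (ratio -0.28, -0.51 to -0.06). Of these 12, 6 had a ratio above 0 and only Cfap54 had an interval below 0. Cfap54 gave 46 of their 187 UMIs in CT and 237 of 1330 in Opa1 cKO.

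Ependymal-like barcodes without a YFP UMI, which the filter had left out, numbered 55 in CT and 270 in Opa1 cKO and came from the same libraries. The ratio had the same sign there for 10 of these 10 members, and the interval lay on the same side of 0 for 7 of them. How often other genes with an interval off 0 did so was not counted. Foxj1 was at -0.67 (92 and 334 UMIs), Cfap54 at -0.58 (-1.01 to -0.13), and Rsph10b between -2.18 and -0.79 (28 and 57 UMIs). Tmem212, Meig1, Drc3 and Cfap298 were at 0.45, 0.40, 0.63 and 0.48. Spag8, Cfap299 and Dnaaf4 were at 0.17, 0.20 and 0.33 there, with intervals that included 0. The assembly factors summed to 674 and 735 CPM in these barcodes (ratio 0.13, -0.19 to 0.45), and the central apparatus members to 1778 and 1486 CPM (ratio -0.26, -0.45 to -0.06). Cfap54 gave 56 of the 256 central apparatus UMIs in CT and 216 of 1233 in Opa1 cKO.

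**Figure D3:**
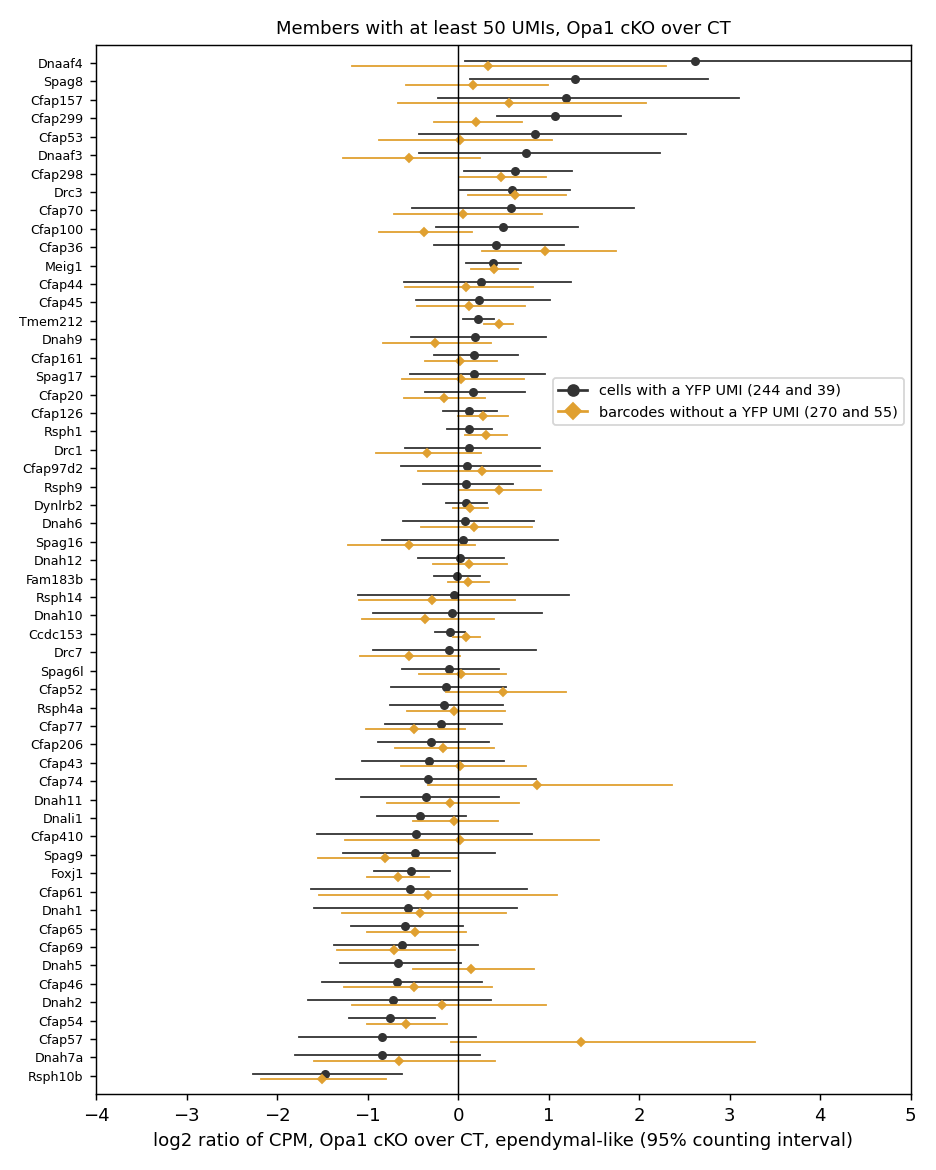
Log2 ratio of CPM in ependymal-like cells, Opa1 cKO over CT, for the 56 members with at least 50 UMIs, in cells with a YFP UMI (black, 244 and 39 cells) and in barcodes without one (orange, 270 and 55). Lines are 95% counting intervals, and that of Dnaaf4 runs past the axis to 7.94. Foxj1, Cfap54 and Rsph10b lie below 0 in both sets, and Tmem212, Meig1, Drc3 and Cfap298 above 0 in both.

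Other genes of the pathway were counted from fixed lists. The list of multiciliation regulators is mixed, with transcription factors and also Deup1, Cep152, Plk4 and Ccp110. Of its 15 genes 7 had 20 UMIs, with a median log2 ratio of Opa1 cKO over CT of -0.60 and a sum of -0.58 (-0.93 to -0.20). Myb, a transcription factor of multiciliated cell differentiation, was at 183 and 102 CPM (-0.84, -1.54 to -0.06), Rfx3 had a ratio of -0.66 (-1.47 to 0.24) and Rfx4 of -0.60 (-1.43 to 0.33). Mcidas and Cdc20b, which act while multiciliated cells form, had 0 UMIs in ependymal-like cells of both libraries, and Gmnc had 1 and 4. Of 50 motile cilium genes outside the rule, 49 had 20 UMIs and a median ratio of -0.02, with 1 at 1 or more (2.04%) and 3 at -1 or less (6.12%), beside the 12.8% and 7.06% of all genes. The interval was above 0 for 5 of them (10.2%, beside 4.72% of all genes), among them Enkur at 0.77 (0.19 to 1.40) and Mlf1 at 0.66 (0.21 to 1.14), and below 0 for 2 (4.08%, beside 4.74%), Dnal1 at -1.19 (-2.06 to -0.23) and Mns1 at -0.63 (-1.21 to -0.01).

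The same lists were set against the other classes. The 50 motile cilium genes outside the rule summed to 11762 CPM in ependymal-like cells of CT and 12761 CPM in Opa1 cKO, with log2 ratios to the other cells of 4.94 (4.84 to 5.05) and 5.14 (5.09 to 5.19), led by Tppp3, 1110017D15Rik and 1700012B09Rik. Intraflagellar transport, which motile and primary cilia share, had ratios of 1.93 (1.76 to 2.09) and 1.92 (1.86 to 1.98) over 22 genes, led by Ift22, Ift43 and Ift20. The 17 primary cilium genes had ratios of 0.74 (0.36 to 1.10) and 0.55 (0.40 to 0.69), led by Arl13b, Tulp3 and Bbs5. The 15 regulators were at 1.64 and 1.68, with Myb at 183 and 102 CPM against 1.01 and 0.95 CPM elsewhere, Rfx3 at 1.60 and 1.60, and Rfx4, also read in NSC pool-like cells at 104 and 78.5 CPM, at 0.64 and 0.30.

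Within Opa1 cKO, ependymal-like cells were divided at an mt- share of 1%, which gave 173 cells under it and 71 at or above it, with 66 of 244 cells between 0.75 and 1.5%. No CT cell lay under 1%, so this division has no CT counterpart. Members made up 2.32% of UMIs in the low group and 1.98% in the higher group, a log2 ratio of 0.23 (0.19 to 0.28). The median over 68 members was also 0.23, beside 0.03 for all 6598 genes. At a ratio of 1 or more were 2 members, Cfap221 and Cfap47 (2.94%; 3.68% of all genes), and at -1 or less 0 (3.05% of all genes).

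The interval was above 0 for 10 members and below it for 0. Among the 68 with 20 UMIs it was above 0 for 9 (13.2%), beside 4.17% of all genes above 0 and 3.64% below. Tmem212 was at 3493 CPM in low and 2877 CPM in higher cells (0.28, 0.17 to 0.39), Ccdc153 had a ratio of 0.26 (0.14 to 0.38), Rsph1 of 0.36 (0.19 to 0.54), Cfap126 of 0.31 (0.10 to 0.51) and Fam183b of 0.23 (0.05 to 0.41). The inner arm chain Dnah6 had 0.79 (0.25 to 1.35) and Drc1 0.75 (0.21 to 1.31), but in barcodes without a YFP UMI they were at 0.10 and -0.10. Foxj1 had a ratio of 0.17 (-0.17 to 0.52). The lowest ratios among members with 50 UMIs were those of Dnah2 at -0.79 (-1.58 to 0.01) and Dnah10 at -0.47 (-1.07 to 0.15), whose direction turned in barcodes without a YFP UMI (0.01 and 0.35) and with the division at 2% (0.50 and 0.38), Dnah10 also at 0.5% (0.24).

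Cells with high doublet scores were spread unevenly over this division, and their part in the difference was not tested beyond leaving them out. Scrublet's own calls were taken as failed, and whether its scores mark doublets was not tested. Of the 71 higher cells 22 were among the highest 5% of Scrublet doublet scores in their library, and of the 173 low cells 18 were. Those cells had member shares of 1.45% and 1.46%, and NSC pool markers at 38231 and 32799 CPM, compared with 21862 and 23411 CPM in the remaining cells. Without them the member shares were 2.38% in 49 higher cells and 2.47% in 155 low cells, a log2 ratio of 0.05 (0.00 to 0.10), and the median over members was 0.01. Of the 10 members, 2 kept an interval above 0, Cfap161 at 0.47 (0.09 to 0.88) and Rsph3a, which had 0 UMIs in higher cells. Over all members the interval was then above 0 for 5 and below 0 for 1, and the share over all genes was not counted for these cells. The 10 genotype ratios named above all kept their side of 0 without the highest scores. The genotype ratio of the members' sum was then 0.14 (0.08 to 0.21), an interval off 0. In barcodes without a YFP UMI, 173 low and 97 higher in Opa1 cKO, the ratio of the members' sum was 0.10 (0.06 to 0.15) and the median over members -0.01. Of the 10 members, 8 kept their sign there and 4 an interval above 0. How often other genes with an interval off 0 did so was not counted. Cfap161 was at 0.11 (-0.21 to 0.44) in these barcodes.

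**Figure D4:**
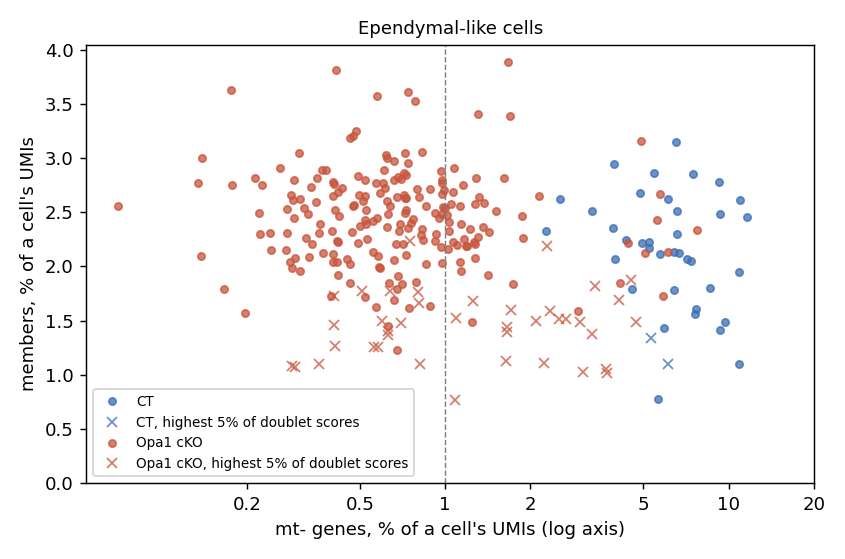
Share of UMIs from the members against the share from mt- genes (log axis) in each ependymal-like cell of CT (blue) and Opa1 cKO (red), with crosses for cells among the highest 5% of doublet scores in their library and a dashed line at an mt- share of 1%. All CT cells lie at or above 2.27% mt-, and the crosses lie low in member share on both sides of the line.

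**Figure D5:**
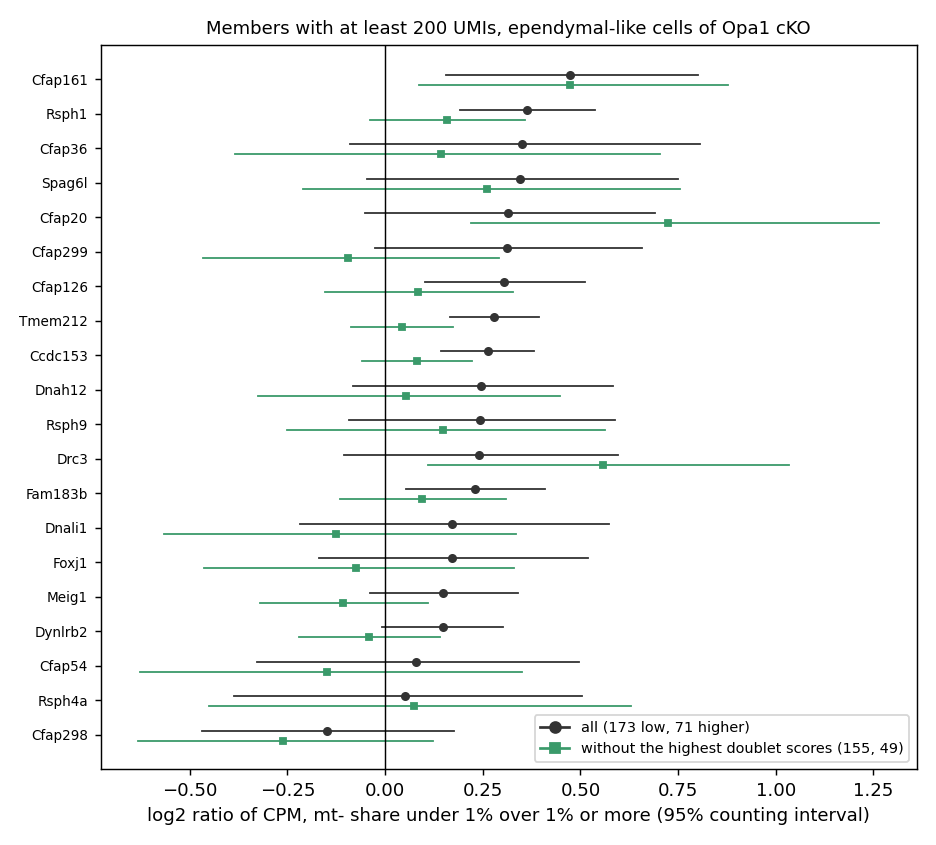
Log2 ratio of CPM in ependymal-like cells of Opa1 cKO, mt- share under 1% over 1% or more, for the 20 members with at least 200 UMIs, in all cells (black) and without the highest 5% of doublet scores (green), with 95% counting intervals. Tmem212 moves from 0.28 to 0.04 and Ccdc153 from 0.26 to 0.08, while Cfap161 stays at 0.47. In barcodes without a YFP UMI, which are not drawn, Cfap161 was at 0.11.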

How the data were processed

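The deposited matrices hold counts: the authors aligned 10x Genomics 3′ v2 reads to mm10 and counted UMIs per gene and barcode, with no normalization. Submitters' processing notes name Cell Ranger 2.1.1, and the matrix headers version 3.1.0. Identifiers that share a symbol were summed here. Coordinates come from GENCODE M21 by gene identifier (83 of 83 matched).

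Barcodes with over 600 and under 7500 genes, under 20% mt- UMIs and at least 1 YFP UMI were kept, as the paper's methods state. This kept 1790 and 3764 cells, and without the YFP criterion 4186 and 6121 barcodes passed. The paper reports more cells than either, so its cells may include barcodes without a YFP UMI. They were clustered with Seurat 5.3.0 and sctransform 0.4.2 in R 4.3.3 (8 dimensions, resolution 0.2). Symbols of the rule and cilium genes of the fixed lists had been removed from the variable genes. A cluster was named from fixed markers where at least 3, and at least 33.3%, had a log2 fold over 1 with 10 CPM added. The form of this rule was set after clusters had been seen. The members, lists and roles were chosen with earlier results of these data known.

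UMIs were summed per class and library. CPM have exact Poisson intervals, shares have Clopper-Pearson intervals, and a log2 ratio has the Clopper-Pearson interval of how its UMIs divide between both groups, with 0 set at 3 counts per group. Intervals were tested on simulated counts drawn with counting error only. That is the model they assume, so the test cannot show how they hold with spread between cells. Doublets were limited only by the 7500 genes. Scrublet (in scanpy 1.11.5) called 16 and 10 barcodes, under 0.5% in each library, so its calls were taken as failed and not used. Its highest 5% of scores were left out as an alternative, and whether these scores mark doublets was not tested. Named genes were those named in the rule, the 3 with most UMIs per role, the 5 highest and 5 lowest with 50 UMIs in Opa1 cKO over CT and in low over higher mt- share, the 8 lowest in ependymal-like over other cells of Opa1 cKO, the top 3 of each list, Dynlrb1 and Opa1. Other genes were named after their values were seen.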

Additional observations from a re-analysis of the deposited data

Results flagged for a closer look

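Ependymal-like barcodes without a YFP UMI, which no comparison of kept cells uses, also carried motile cilium UMIs, above the 0.0717% and 0.0794% in other kept cells of CT and Opa1 cKO. They held 2.20% of their UMIs in the members in CT (exact interval 2.12 to 2.27%, 55 barcodes) and 2.37% in Opa1 cKO (2.33 to 2.40%, 270 barcodes). Their median mt- share was 6.70% in CT, with 0 of 55 under 1%, and 0.779% in Opa1 cKO, with 173 of 270 under 1%. Opa1 had 5 UMIs in each set, of 144008 and 829937 UMIs. The members' sum had a log2 ratio of Opa1 cKO over CT of 0.11 (0.05 to 0.16), and the median over 65 members was 0.03, beside 0.06 for all 6702 genes.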

How the results depend on the processing

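With 1 library per genotype no spread between replicates could be measured, so each value was compared with its own 95% counting interval under 15 alternatives and under 1 more, barcodes without a YFP UMI, chosen after seeing the data. No paired analysis was possible because each genotype is 1 library. Of 100 comparisons of the main values, 81 stayed within that interval; the cause of the others was not tested except where the alternative's construction gives it. The sum of Opa1 cKO over CT (0.05) became 0.14 without the highest doublet scores, 0.12 when thinned to 1500 UMIs and -0.027 per UMI outside mt- genes. The sum of low over higher mt- share (0.23) became 0.18 with no YFP filter, 0.053 without the highest doublet scores, 0.17 as a mean over cells, 0.15 when thinned, 0.13 with the division at 0.5%, 0.41 at 2% and 0.10 in barcodes without a YFP UMI. In those barcodes the median over members turned to -0.0145, Cfap45 to -0.42 and Drc1 to -0.10. With no YFP filter 8.41% of Opa1 cKO cells were ependymal-like. With members of at least 100 UMIs, fewer in number, the CT median of ependymal-like over other cells was 2.89. NSC pool-like levels became 800.0 CPM in CT per UMI outside mt- genes, 774 CPM in Opa1 cKO as a mean over cells, and 353 and 387 CPM with axonemal members alone. Members per thinned cell fell to 12 and 14 at 1000 UMIs, and to 16 in Opa1 cKO with axonemal members alone. Few CT UMIs widen the genotype ratios: 6 of the 9 members at a log2 ratio of 1 or more had 2 or fewer.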

Other observations

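A small set of cells outside the ependymal-like class carried part of the motile cilium genes. They were picked, after values had been seen, as cells with at least 3 UMIs from at least 2 of the 4 genes Rax, Nkx2-4, Pdzph1 and Slit2, which are not cilium genes, and they are given no cell type name and no test. There were 21 in Opa1 cKO, of which 19 were among the 419 activated NSC-like cells and 2 among the NSC pool-like cells, and 1 in CT, where only 12 cells were activated NSC-like. In the 21 cells the axonemal members summed to 3300 CPM, 15.7% of the level in ependymal-like cells, compared with 647 CPM in the remaining activated NSC-like cells. A cell held a median of 11 axonemal UMIs (1 to 22), and 1 of the 21 was among the highest doublet scores.

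Members differed in how near they came to the ependymal-like level. Cfap45 was at 175 CPM (90.8% of it, from 12 UMIs), Cfap126 at 453 CPM (43.8%, 31 UMIs) and Fam183b at 438 CPM (32.8%, 30 UMIs). Dynlrb2 was at 277 CPM (16.1%) and Meig1 at 146 CPM (12.5%). By contrast, Tmem212 had 0 UMIs and Ccdc153 had 1 UMI in 68478, beside 3125 and 2839 UMIs in ependymal-like cells of Opa1 cKO. Rax and Nkx2-4, which were used to pick these cells, had 27 and 22 UMIs in them, so those counts follow from the choice. In ependymal-like cells of that library both had 0 UMIs. The ependymal marker Rarres2 was at 292 CPM in the picked cells, 7.21% of the ependymal-like level.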
